A study of Drosophila melanogaster with 2 samples.

Results

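Of the 4370 summits in the list of Adf1 binding peaks supported by both replicates, 482 (11.03%) lay deep inside genes on the autosomes. A summit was counted here if it was not on the X chromosome, lay more than 2000 bp from every start of a protein-coding transcript, and fell within a protein-coding gene but outside coding and untranslated sequence. These 482 summits, called intragenic distal summits below, therefore lie in introns, and they came from 458 distinct peak intervals. Chromatin came from whole Drosophila melanogaster embryos 0 to 24 h old, so that every tissue and stage of embryogenesis was mixed. The strain was a transgenic one making Adf1 joined to eGFP, and chromatin sheared by sonication to 200 to 800 bp was precipitated with an antibody to GFP according to the sample descriptions, whereas the antibody field of the labels reads Adf1. The only group held 2 biological replicates of 1 library each, and no control sample or other condition was analysed here. Peaks carry no read counts, so the depth of each library is unknown, and the 95% intervals given are for counting error only.

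Adf1 binds DNA through a MADF domain. It was first found as a factor that activates Adh, which encodes alcohol dehydrogenase, from its distal promoter, and it is known to bind GC-rich repeated trinucleotides. Introns of flies, above all long first introns, often hold enhancers, which act on a start site at a distance. Many genes for developmental regulators carry several such elements spread over a long transcription unit.

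The sequence under the strongest of these summits shows the kind of site the counts below turn on. Each stretch is 30 bases of the plus strand of the Release 6 genome (dm6). Capitals mark matches on either strand to GCNGCNGC, GC followed by any base, repeated. The 8 strongest summits with such a match within 50 bp, among those considered for printing, were these:
ssp3, chr2L:18936210-18936239: gcgctggcagcGCAGCCGCatttgctgtcc
ftz-f1, chr3L:18759481-18759510: cggcctctgtcGCCGCCGCcgtcgctgccg
Kr-h1, chr2L:6089284-6089313: atttgtgcgtgGCAGCGGCgacgcacactg
ftz-f1, chr3L:18771638-18771667: cgacggcgacaGCGGCAGCacgaacaagtt
MSAmiP, chr3R:16882524-16882553: gcgacGCAGCTGCCGCCGCtgtcgacgtcg
Abd-B, chr3R:16948773-16948802: caagagtaatgGCGGCGGCatggcgccgca
ftz-f1, chr3L:18781974-18782003: gaccgcaattcGCCGCTGCcagcgctgctg
kis, chr2L:246918-246947: gtatatcacgtGCTGCGGCagtggatggga
The 4 strongest without a match under the same limit are shown centred on the summit, for contrast. Summits of 1 long arm were not considered for printing, among them the strongest in mam, which has no match and ranks above the one in hth:
MSAmiP, chr3R:16847365-16847394: cactagcctgctttcgctcaccctaacggc
Eip75B, chr3L:18029768-18029797: attatcgacggtcgttcacctatttactcg
rdx, chr3R:14017850-14017879: agaaccaacagcagcagagctagggagaga
hth, chr3R:10616857-10616886: tcgacgccggcagagaagtgtgtgttgtgt
The MSAmiP stretch of the first set holds 5 GC triplets in a row, and Kr-h1 has a run of 4 in its window. The stretches at MSAmiP, Eip75B, rdx and hth in the second set stood at places 1, 4, 6 and 9 of all 482 in order of signal, so a strong peak did not require this match.

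The strongest intragenic distal summit lay in MSAmiP (FBgn0288835), a micropeptide gene whose introns run through the bithorax complex between the Hox genes abd-A and Abd-B. Its peak signal was 1905 in replicate 1, 1917 in replicate 2 and 3814 in the list of both. The signal is a value that the authors' peak caller gave each peak, on a scale the sources used here do not state, and it is compared below only between peaks of the same list. Values of replicates 1 and 2 come from separate lists and are given side by side, without comparing their size. The summit in ssp3 (FBgn0032723) followed, at 1628 in replicate 1, 1847 in replicate 2 and 3434 in both. The third was in the first intron of ftz-f1 (FBgn0001078), which encodes a nuclear receptor of the ecdysone cascade, at 1201 in replicate 1, 1978 in replicate 2 and 3195 in both. All 3 ranked among the 20 strongest of the whole list, and 10 of the 482 ranked among its 100 strongest.

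Below these came several regulators of hormone response and patterning. The summit in Eip75B (FBgn0000568), another ecdysone-induced nuclear receptor gene, reached 741 and 1379 in replicates 1 and 2, and 2107 in both. Kr-h1 (FBgn0266450), a zinc finger gene that acts downstream of juvenile hormone, had 565 and 1492, and 2036 in both. In rdx (FBgn0264493), whose product directs the Hedgehog effector Ci to degradation, the values were 690 and 1254, and 1919 in both. The strongest summit in mam (FBgn0002643), which encodes the Notch coactivator Mastermind, had 559 and 1171, and 1749 in both. In hth (FBgn0001235), the gene for a homeodomain partner of Hox proteins, they were 613 and 1048, and 1684 in both. All 5 summits were in the own thresholded list of each replicate.

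The rest of the 20 strongest had signals between 1087 and 1749 in the list of both replicates. They included 2 further summits in ftz-f1, another in mam and another in MSAmiP, and 2 in the nuclear receptor gene Hr3 (FBgn0000448). Single summits lay in simj (1431), a subunit gene of the NuRD remodelling complex, in Abd-B (1331), the posterior Hox gene, in pnt (1286), an Ets factor gene of the EGFR pathway, and in bab1 (1215), a BTB factor gene of leg and abdomen patterning. The last were in kis (1190.0), a trithorax group remodeller gene, and in CG4297 (1164). All 20 summits were in the own lists of both replicates.

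Across all 482, signal ran from 16.1, in the nuclear receptor gene Hnf4, to 3814, with a median of 143.8 and a middle range from 103.3 to 236.3. Of the members, 223 (46.3%) had a signal above the median of the whole list, 150.6. That share was 3.15 percentage points below the share of the 2040 autosomal promoter summits, those within 500 bp of a start, with an interval from -8.06 to 1.82. It was 6.44 points below that of the 296 autosomal intergenic distal summits, with an interval from -13.6 to 0.79. Neither interval excluded 0 in this list. In the own lists of both replicates and in the longer, optimal list of both together the shortfall against promoters was larger and its interval excluded 0. Against intergenic distal summits the difference was -13.3 points (-21.7 to -4.66) in replicate 1's own list and -6.58 (-12.6 to -0.56) in that of replicate 2, both excluding 0, and -5.51 (-11.7 to 0.76) in the optimal list.

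In replicate 1's own list, 326 of the 482 (67.6%, 63.3 to 71.7%) overlapped a peak by at least 1 bp, beside 70.2% of the whole list. In replicate 2's own list 444 (92.1%, 89.4 to 94.2%) did, beside 92.7%. Both shares lay close to those of all summits. In all, 309 were in both own lists, 135 in that of replicate 2 only, 17 in that of replicate 1 only, and 21 in neither. The 135 had signals of up to 285 in the list of both replicates, the highest being in sty, the EGFR inhibitor gene sprouty. Both summits on chromosome 4, in the homeodomain and zinc finger gene zfh2, belonged to them, with 122 and 105 in the list of both replicates.

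Peaks below the threshold of a replicate's own list are still kept in its ranked list, and 479 summits overlapped a ranked peak in each replicate. The Spearman correlation of the signals was 0.638 across those 479 summits, which share 2 libraries and were selected by the authors for like ranks, so it is a description only. The nearest summit of replicate 1 lay a median of 22 bp from that of the joint list, and the nearest of replicate 2 a median of 8 bp. Where 1 interval held several summits, a weak summit could take the replicate value of a stronger neighbour, and 48 members lay in such intervals.

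**Figure D1:**
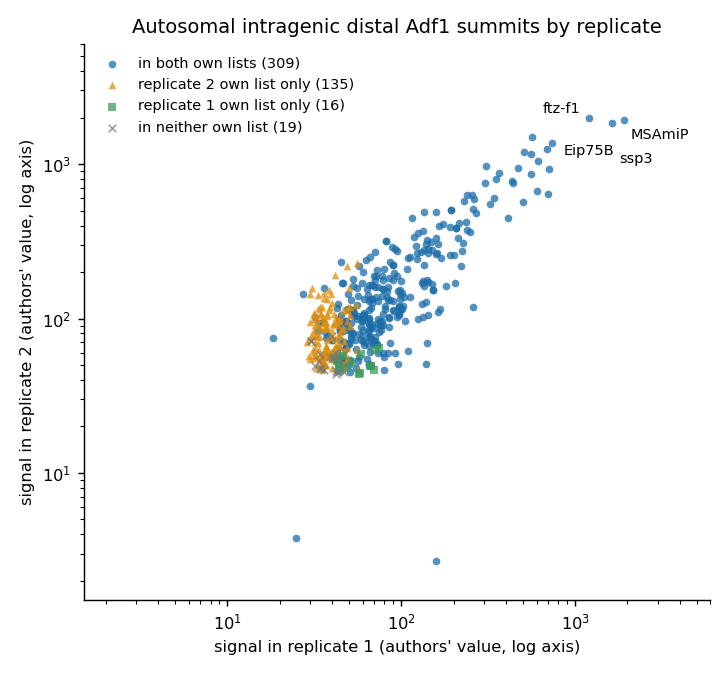
Signal of each intragenic distal summit in the ranked list of replicate 1 (x axis) and of replicate 2 (y axis), both on log axes in the authors' unit, for the 479 summits found in both. The 2 axes are separate scales and are not to be compared in size. The summits of replicate 2's own list only lie at low replicate 1 signal, and the strongest, in MSAmiP, ssp3, ftz-f1 and Eip75B, are in both own lists.

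Overlap with replicate 1's own list fell with signal. With the members put in 4 groups of equal size by signal, it was 98.3% in the strongest, 78.3% in the next, 52.5% in the next and 41.3% in the weakest. In replicate 2's own list the shares in the same order were 100%, 98.3%, 92.5% and 77.7%. Replicate 1's own list is the shorter, with 3127 peaks to 6003, and the depth of neither library is known.

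Intragenic distal summits were 13.9 per Mb of the 34.6 Mb of autosomal sequence that meets the rule, called eligible sequence here. By the same measure there were 160 promoter summits per Mb within 500 bp of a start, 23.7 per Mb between 500 and 2000 bp, 10.3 per Mb in intergenic distal sequence and 3.16 per Mb in distal exons. Among the long arms density was highest on 3L and lowest on 3R, with no interval computed. It was 15.2 per Mb on 2L, 14.3 on 2R, 15.8 on 3L and 11.9 on 3R, with 103, 106, 133 and 138 summits. On the small chromosome 4 the 2 summits in zfh2 came to 4.44 per Mb. The strongest on each long arm lay in ssp3 on 2L, mam on 2R, ftz-f1 on 3L and MSAmiP on 3R.

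The summits thinned out with distance from starts, even among sequence that was all beyond 2000 bp. Distance to the nearest start ranged from 2008 to 78338 bp with a median of 4964 bp. Density was 25.4 per Mb between 2 and 5 kb (244 summits), 15.7 between 5 and 10 kb (134), 11.1 between 10 and 20 kb (79) and 5.32 between 20 and 50 kb (23). Beyond 50 kb 2 summits remained, 0.40 per Mb. Signal did not follow this order: the medians of the first 4 bands were 140.4, 146.3, 145.4 and 153.4.

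At the 2000 bp limit itself, the 3 nearest summits kept by the rule were in fru at 2008 bp, Dif at 2021 bp and jim at 2022 bp. Their signals were 380, 121 and 54.8. The 3 nearest intronic summits left out were in crol at 1998 bp, tara at 1991 bp and Hnf4 at 1987 bp, with signals of 279, 1386 and 279. fru is the sex determination gene fruitless, Dif an NF-kB factor of the Toll pathway, crol a zinc finger gene induced by ecdysone and tara a trithorax group gene.

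A first intron here is the first of at least 1 annotated transcript of a gene, so it may follow an internal start. First introns held 282 of the 482 summits (58.5%, 54.1 to 62.8%), while they made up 36.0% of eligible sequence. The difference was 22.5 percentage points (18.1 to 26.8). First introns also lie nearer to starts, so the shares were compared within bands of distance. Between 2 and 5 kb 70.9% of summits and 52.1% of sequence were in first introns, a difference of 18.8 points (12.8 to 24.2). Between 5 and 10 kb the difference was 5.02 points (-3.28 to 13.4), and between 10 and 20 kb it was 8.11 points (-2.14 to 19.1), both with intervals that included 0. Between 20 and 50 kb it was 25.3 points (6.67 to 44.5), on 23 summits. Median signal was 146.6 in first introns and 140.9 in other introns. With 1 intron per summit, the shortest in the holding gene whose start was nearest, 243 (50.4%) lay in intron 1.

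**Figure D2:**
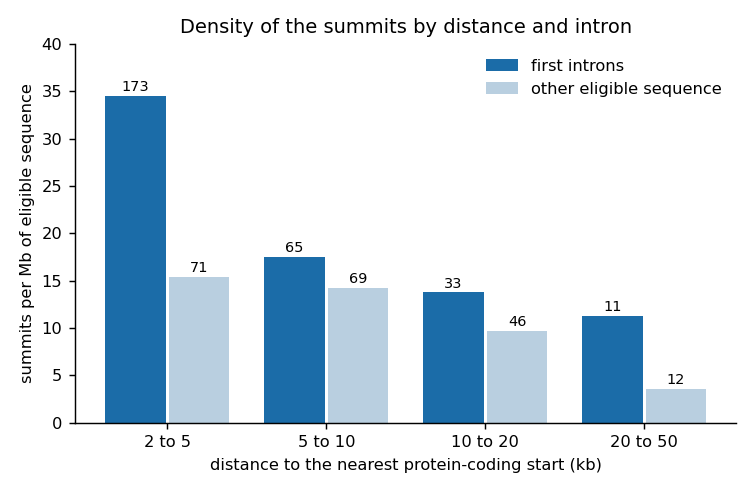
Intragenic distal summits per Mb of eligible sequence (y axis) by distance to the nearest protein-coding start in kb (x axis), for first introns and for other eligible sequence, with the number of summits above each bar. Density falls with distance in both, from 34.5 to 11.3 per Mb in first introns and from 15.4 to 3.58 per Mb in the rest.

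The introns that held summits had a median length of 12862 bp and a range from 140 to 110416 bp. The distance limit of the rule itself favours long introns, and no length over eligible sequence was computed. For 389 summits (80.7%) the nearest start belonged to a gene that held the summit, and for the other 93 it belonged to another gene, as for the leading MSAmiP summit, 17331 bp from abd-A. In 457 cases only 1 protein-coding gene spanned the summit. The start of an annotated non-coding gene lay within 500 bp of 16 summits (3.32%). The strongest of these, in MSAmiP with a signal of 603, was 123 bp from the start of lncRNA:iab4, and one in ftz-f1 (281) was 13 bp from that of lncRNA:CR45938. Whether such summits mark starts that the protein-coding annotation lacks was not tested. Neither the share with a holding gene's start nearest nor that near a non-coding start was computed over eligible sequence. Both are therefore description only. A further summit lay within 1000 bp of 177 members (36.7%), beside 32.8% of the whole list. The share was 10.8 points (6.18 to 15.6) above the 25.9% of promoter summits, differed by -6.87 points (-12.8 to -0.90) from the 43.6% of summits 500 to 2000 bp from a start, and lay within its interval of the 39.5% of intergenic distal summits (-9.85 to 4.16).

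The GC triplet match shown at the start of these results was concentrated at the summits. GCNGCNGC was present on either strand within 50 bp of 78 of the 482 summits (16.2%, 13.2 to 19.7%), beside 699 of the 4370 in the whole list (16%). Windows of the same width centred 500 bp to either side held it in 3.22% of 964 cases, 13.0 points less (9.68 to 16.6). Among all 342451 windows of that width in eligible sequence, 3.46% held it. Its share at promoter summits was 14.6%, which differed from the members by 1.57 points (-1.84 to 5.42), and at intergenic distal summits 15.9%. The match nearest the summit lay a median of 19.5 bp away, and within 25 bp in 51 of the 78.

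The match went with signal. It was present at 45 of the 121 strongest summits (37.2%), then at 10.8%, 6.67% and 9.92% of the next groups in falling order of signal. Summits with it had a median signal of 280.6, and those without it 137.0. In replicate 1's own list under the same rule (337 summits) the share fell from 33.3% of the strongest group to 5.88% of the weakest, and in replicate 2's own list (752 summits) from 27.1% to 6.38%. Summits with a match overlapped replicate 1's own list in 85.9% of cases, and those without in 64.1%. That overlap itself fell with signal, and it was not compared by match within groups of signal.

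Summit windows were also richer in G and C, and the match was compared within classes of that content. Median GC content was 48.5% at the summits, 38.6% in the flanks and 40.6% over eligible windows. In windows of 45 to 50% GC, 14 of 73 summits (19.2%, 11.8 to 29.7%) had the match and 5.49% of eligible windows did. Between 50 and 55% GC the shares were 18.5% (11.9 to 27.6%) and 8.09%, and above 55% they were 32.3% (24.8 to 40.8%) and 11.4%, while 12 of the 63 flanks above 55% (19.0%) had it. Between 40 and 45% GC the shares were 4 of 41 (9.76%, 3.86 to 22.5%) and 3.46%. Below 40% GC, 2 of 149 summits (1.34%, 0.37 to 4.76%) had it, close to the 1.05% of eligible windows. Those 149 low-GC summits had a median signal of 123.7, against 212.7 above 55% GC.

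A related triplet with the C in the last place came out of the 6-mer counts. The 6-mers with the largest ratio of summit to flank share were GACGCC, in 11.6% of summit windows and 1.45% of flanks, and GTCGAC, in 8.30% and 1.04%. Of the next 8 in that order, the most frequent was CGCTGC, in 24.3% and 4.56%. The motif GNCGNCGNC was then counted, a choice made from these same windows. It was in 86 summit windows (17.8%), 1.97% of flanks, 1.46% of eligible windows, 13.1% of promoter summits, 15.2% of intergenic distal summits and 16.3% of the whole list. Since the motif was picked on the member windows, these shares are a description and no difference is tested. Of the 86, 34 also held GCNGCNGC, which can overlap it, and 130 summits (27.0%) held either, against 4.98% of flanks. Either was present at 55.4% of the strongest group and 15.7% of the weakest.

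**Figure D3:**
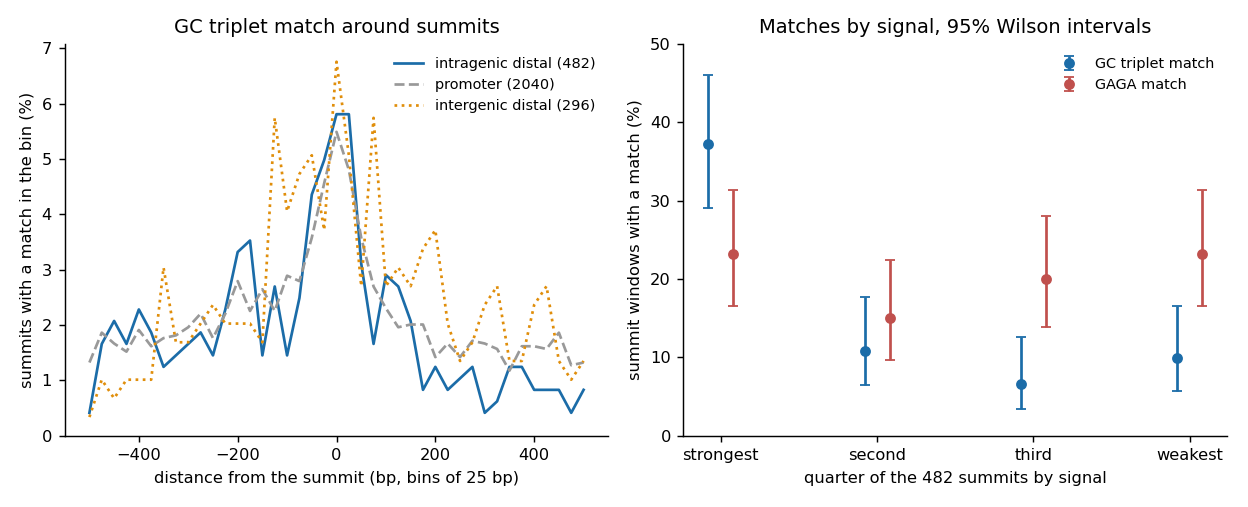
Left, share of summits with a GCNGCNGC match centred in each 25 bp bin (y axis, %) by distance from the summit in bp (x axis), for intragenic distal, promoter and intergenic distal summits of the autosomes. Right, share of intragenic distal summit windows with GCNGCNGC or GAGAG (y axis, %) in 4 groups by signal, with 95% Wilson intervals. The 3 profiles all peak near the summit, and the GCNGCNGC share drops from 37.2% to 10.8% after the strongest group while GAGAG stays at 18 to 28 summits in each group.

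GAGAG is the core bound by GAGA factor (Trl), a factor known for opening chromatin at promoters and Polycomb response elements. It was more frequent in summit windows than in flanks but was not centred on the summit and did not follow signal. It was within 50 bp of 98 summits (20.3%, 17.0 to 24.2%), beside 21.0% of the whole list and 11.3% of eligible windows. Flanks held it in 12.3% of cases, 7.99 points less (3.96 to 12.3). At promoter summits it was in 19.6%, a difference of 0.77 points (-3.02 to 4.94). From the strongest to the weakest group 28 of 121, 18 of 120, 24 of 120 and 28 of 121 had it. GCCAT, the core recognised by the Polycomb recruiter Pho, was in 18.9% of summit windows, 18.6% of flanks and 19.8% of eligible windows. At promoter summits it was in 14.1%, 4.76 points less (1.16 to 8.77), and at intergenic distal summits in 65 of 296.

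Some other words differed in share from promoter summits, but not beyond the interval from intergenic distal summits. TATCGATA, the DNA replication-related element of housekeeping promoters, was in 1 of the 482 (0.21%), 2.79% of promoter summits, 0 of 296 intergenic distal summits and 0.21% of eligible windows. The promoter word GGTCACAC was in 0 of 482, which allows a share of up to 0.622% at a limit of 3 counts (Wilson upper limit 0.79%), against 1.81% of promoter summits, 0 of 296 intergenic distal summits and 0.14% of eligible windows. GGGCG was in 19.7% against 12.7%, a difference of 7.01 points (3.38 to 11.0), with 19.3% at intergenic distal summits, 9.65% in flanks and 9.74% in eligible windows. CACACAC was in 10.4% against 7.16%, a difference of 3.22 points (0.52 to 6.43), with 8.78% at intergenic distal summits, 4.77% in flanks and 3.53% in eligible windows. The homeodomain core TAATTA was in 3.94% of summit windows and 7.05% of flanks, a difference of -3.11 points (-5.39 to -0.53), beside 7.51% of eligible windows; its difference from promoter summits was -1.94 points (-3.73 to 0.39). CAGGTA, bound by the early embryonic activator Zelda, was in 1.04%, beside 2.11% of eligible windows, and differed from promoter summits by -1.22 points (-2.17 to 0.26).

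The summits fell in 250 of the 3572 autosomal protein-coding genes with eligible sequence (7.0%). Of these, 151 genes held 1 summit, 42 held 2 and 57 held 3 or more, and the last together held 253 of the 482 summits. Genes that held a summit had a median of 20.2 kb of eligible sequence, and the others 1.17 kb. The share of genes with a summit rose from 0.063% with up to 1 kb of eligible sequence to 6.40% with 1 to 10 kb, 17.8% with 10 to 30 kb and 28.4% with 30 to 100 kb. Above 100 kb it was 7 of 37 (18.9%), and density there was 2.34 summits per Mb, against 15.2 to 20.9 in the 3 classes between 1 and 100 kb. Density was thus lowest among the genes with at least 1 kb in those with the most eligible sequence, of which 32.7% was masked as repeats, beside 20.5 to 21.9% in those 3 classes.

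Genes with an intragenic distal summit more often had a summit at a start of their own. A summit lay within 500 bp of a start in 153 of the 250 (61.2%), and in 28.8% of the 3322 others, a difference of 32.4 points (26.1 to 38.4). Among genes with 10 to 30 kb of eligible sequence the shares were 60.9% and 33.5%, and with 30 to 100 kb they were 69.3% and 33.9%. The holding genes had a median of 2 distinct starts and the others 1, and the part of start number in the difference was not tested.

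ftz-f1 held 13 summits, more than any other gene. They ran over 37.4 kb on 3L with signals from 112 to 3195 and a median of 281, and all 13 were in the own list of each replicate. The 3 strongest, at 3195, 1749 and 1277, each had a GC triplet match, as did 1 other. Eip74EF (FBgn0000567), an Ets gene induced early by ecdysone, held 10, from 73.7 to 364, 9 of them in replicate 1's own list. mam held 10, from 132 to 1749, of which 8 were in that list. sbb (FBgn0285917), which encodes a transcriptional corepressor, held 9 from 85.0 to 236, all in its first intron, and rdx held 8 from 86.5 to 1919.

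The histone H3 lysine methyltransferase gene gpp (FBgn0264495), the JNK phosphatase gene puc (FBgn0243512) and the chromatin factor gene tou (FBgn0033636) held 7 each. Their strongest summits had signals of 875, 492 and 685. Replicate support differed among them: all 7 summits in tou and 6 in gpp were in replicate 1's own list, but 1 of the 7 in puc, although all 7 in each gene were in that of replicate 2. The smallest gap between neighbouring summits was 200 bp in gpp and puc and 206 bp in tou, and pairs that close share DNA fragments. The median gaps were 2522, 697 and 1527 bp in gpp, puc and tou.

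Ecdysone and nuclear receptor genes had the highest share of holders among the 18 gene lists examined, in the list of both replicates. The steroid ecdysone acts through the receptor EcR with its partner Usp, which induces a cascade of transcription factor genes that drive moults, and pulses of it also occur in the embryo. Of the 16 genes of this list with eligible sequence, 9 (56.3%) held 49 summits, 102 per Mb of their eligible sequence, where all 3572 genes had 7.0% and 14.3 per Mb. The list had a median of 24.1 kb of eligible sequence per gene. At that size 17.8% of all genes held a summit, with 20.9 summits per Mb. The receptor gene EcR held 5 summits from 69.9 to 379. Among the genes it induces, Eip74EF held 10 and Eip75B held 6, from 55.3 to 2107, and Hr3 held 6 from 163 to 1388. Among those that act later, ftz-f1 held 13. tai, the gene of a steroid receptor coactivator, held 6 from 86.7 to 231, and Hr39, E23 and Hnf4 held 1 each. In replicate 1's own list 8 of the 16 held a summit, in that of replicate 2 10 and in the optimal list 11. In each replicate's own list this share equalled that of the Hox genes, of which 4 and 5 of 8 held a summit.

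**Figure D4:**
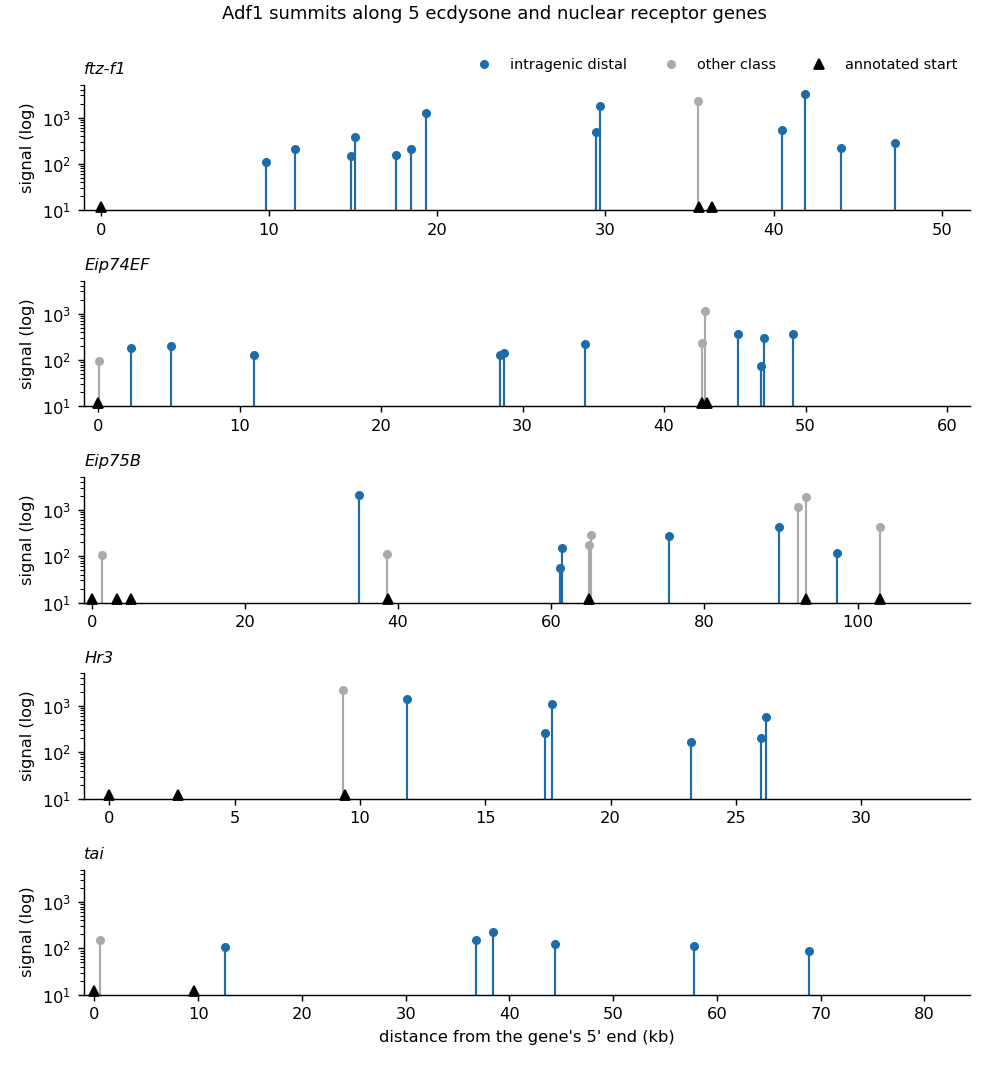
Summits of the list of both replicates along the 5 ecdysone and nuclear receptor genes with the most intragenic distal summits, by distance from the gene's 5' end in kb (x axis) and signal on a log axis (y axis), with annotated starts as triangles. In ftz-f1 and Hr3 the intragenic distal summits reach 3195 and 1388 and stand beside 1 promoter summit each, of 2266 and 2163, while Eip75B has 7 summits of other classes.

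Hox genes and the chromatin regulators that keep them on or off held summits in 4 of 8 and 8 of 25 cases, beside the 7.0% of all genes. The 8 Hox genes had a median of 19.95 kb of eligible sequence, a size at which 17.8% of all genes held a summit, and 26.4 summits per Mb, beside 20.9 per Mb for genes of that size. Among them Antp had 3, up to 417, abd-A 2, up to 206, Ubx 1 at 530 and Abd-B 1 at 1331. With the 6 in MSAmiP, from 172 to 3814, 10 intragenic distal summits thus lay in genes of the bithorax complex, with signals from 94.2, in abd-A, to 3814. The 8 Polycomb and trithorax group genes (32.0%) held 24 summits, 92.1 per Mb of the eligible sequence of all 25. kis, osa, skd and psq had 4 each, with maxima of 1190.0, 503, 155 and 316, and jing and tna had 3 each. Psc, a subunit gene of the Polycomb repressive complex, and trx, the methyltransferase gene, had 1 each at 93.5 and 152. The gene tara, named above as of the trithorax group, held 6 up to 847 and is left out of these counts.

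Genes of signalling pathways held summits in shares from 10.5% (Wnt) to 33.3% (Hedgehog), beside 7.0% of all genes. Among all genes with 1 to 10 kb of eligible sequence, the size of the median Dpp, Wnt and Hedgehog gene, 6.40% held a summit. With 10 to 30 kb, the size for the Notch and EGFR lists, the share was 17.8%. The lists are small. The Wnt, Notch and EGFR shares lay nearer to those of their size than the Dpp (18.75%) and Hedgehog shares. In the Hedgehog list 3 of 9 genes held summits: rdx with 8, the receptor gene ptc with 1 at 102 and the heparan sulfate proteoglycan gene dally with 1 at 109. In the Dpp list 3 of 16 did: shn, a zinc finger cofactor of the pathway, with 6 up to 543, the inhibitory Smad gene Dad with 5 up to 258, and the binding protein gene cv-2 with 1 at 95.1. In the Notch list 2 of the 9 matched genes did, mam with 10 and the ubiquitin ligase gene neur with 1 at 30.4. In each replicate's own list only 1 of the 9 did. The Notch ligand gene Delta, whose list symbol had no match, held 1 at 357 and is left out of these counts. The EGFR list had 5 of 21, among them the Ets activator pnt (1286), the inhibitor sty (445) and S, the gene Star for ligand trafficking (176). In the Wnt list 2 of 19 held 1 summit each, the feedback inhibitors nkd (162) and Notum (143). The strongest summits in mam, Dad and dally lay nearest to the start of another gene.

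Transcription factor lists are given beside the same 7.0%. Of 24 GATA, forkhead and other zinc finger regulators 10 (41.7%) held 27 summits. The list had a median of 17.0 kb of eligible sequence per gene, a size at which 17.8% of all genes held a summit. The strongest were in Kr-h1 (2036), psq (316) and chinmo (282), a gene of neuronal temporal identity. Of 41 homeodomain and T-box regulators other than Hox genes 2 (4.88%) held 8, which were the 6 in hth and the 2 in zfh2. Of 11 segmentation factors with eligible sequence bowl alone (9.09%) held 1, at 114. The shares of these last 2 lists lie near that of all genes.

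None of the 53 cell adhesion genes held a summit, although they had 2.09 Mb of eligible sequence between them. A count of 0 among 53 allows a share of up to 5.66% at a limit of 3 counts, just under the 7.0% of all genes. The list had a median of 25.7 kb of eligible sequence per gene, a size at which 17.8% of all genes held a summit. In each replicate's own list 2 of them held a summit (3.77%), beside 5.71% of all genes for replicate 1 and 9.74% for replicate 2, and in the optimal list 4 (7.55%), beside 9.46%. At their starts, 6 of 53 (11.3%) had a summit within 500 bp, beside 1109 of 3572 (31.0%), a difference for which no interval was computed. Ion channel and receptor genes had summits in 2 of 43 (4.65%), Ca-beta (134) and Ih (109).

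**Figure D5:**
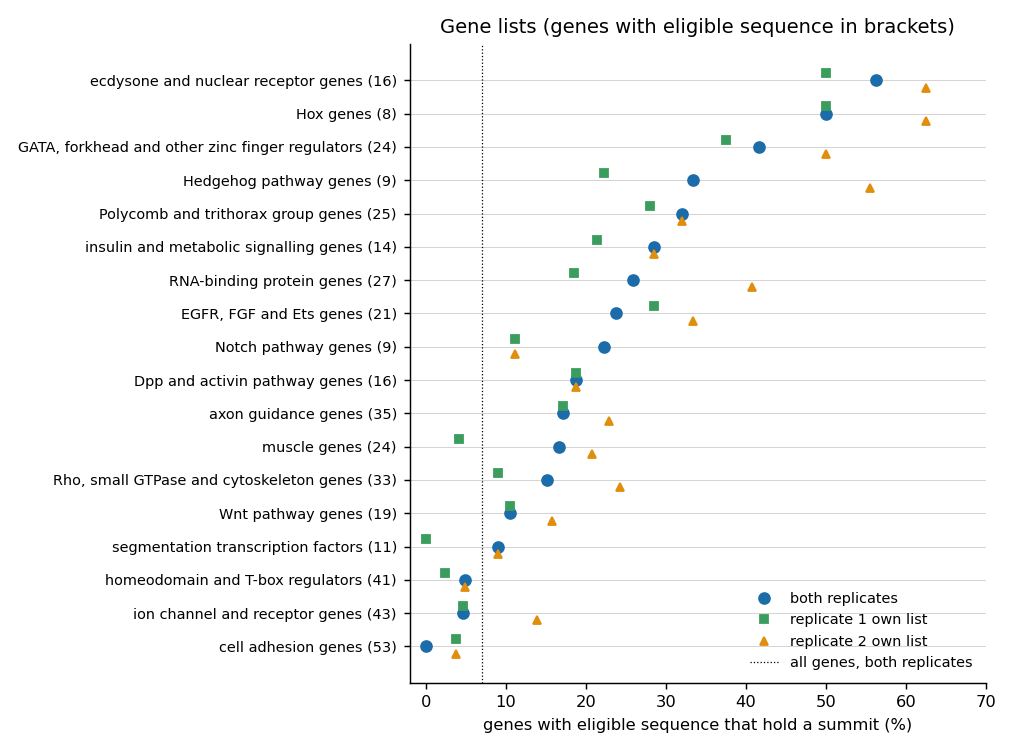
Share of the genes of each list that hold an intragenic distal summit (x axis, %), by list (y axis, with its number of genes with eligible sequence), in the list of both replicates and under the same rule in each replicate's own list, with a dotted line at the 7.0% of all genes. Ecdysone and nuclear receptor genes (56.3%) and Hox genes (4 of 8) stand highest and cell adhesion genes (0%) lowest, and most lists have a higher share in replicate 2, whose own list is longer.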

How the data were processed

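ChIP-seq peak lists of 2 replicates were used: the list supported by both (the conservative one), the optimal list, and each replicate's own thresholded and ranked lists. The authors derived them from alignments and a control file, per the file headers and deposited file notes; which aligner and caller made them is not given in the sources used here. The deposited signal of each peak is the authors' value, and the summit offset in bp gave the summit. Genes came from the Ensembl annotation of BDGP6.54, release 115 (13968 protein-coding genes), and sequence from the NCBI Release 6 assembly. Motifs were searched on both strands in 101 bp windows, with flanks at 500 bp. Shares have Wilson 95% intervals and differences Newcombe 95% intervals, for counting error only. Summits are not biological replicates, and no p-values were computed. The methods were tested on planted data. The members, lists and motifs were chosen with earlier results of these data known. Of 587 list symbols, 34 had no match. Named genes were those of the 20 strongest members, those with the most members, up to 3 per list with the strongest member, the strongest per arm, those of chromosome 4 and those nearest the 2000 bp limit; other holders of the ecdysone, Hox, Polycomb and trithorax lists, of lists with few holders, and examples near non-coding starts were named after their values were seen. Sequences were printed for the strongest members off 1 arm. Alternatives were other lists, distances, windows, flanks, classes and overlap rules; after seeing the data, 1 member per gene and masked windows left out were added. Python 3.11.15, NumPy 2.4.6, pandas 2.3.3, SciPy 1.17.1 and Matplotlib 3.10.9 were used.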

Additional observations from a re-analysis of the deposited data

How the results depend on the processing

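Across 78 alternatives of 10 results, 61 kept direction and side of 0, or stayed within 1.5 times the count. The summit excess over flanks for GCNGCNGC and GAGAG and the first-intron excess kept their sign with intervals above 0 under every list, distance, window and flank tried, with 1 member per gene and, for the motifs, without masked windows. The number of members was 223 among the stronger part of the list and 238 at 5000 bp, and from 337 to 752 in single replicates' own lists. The number of holding genes was 144 and 133 under the first 2, and from 204 to 348 in single replicates. The GCNGCNGC difference from promoter summits, within its interval of 0 throughout, was -0.26 points at 1000 bp and from -0.77 to 0.16 in single replicates. The GAGAG difference was -1.50 points in the stronger part of the list and -0.26 in 51 bp windows. The share above the list median, members minus promoter summits, was -5.89 points in the optimal list and from -7.48 to -6.13 in single replicates, each with an interval below 0. Against intergenic distal summits it was from -13.3 to -6.58 in single replicates, also with intervals below 0. The overlap difference with replicate 1's list was -6.83 points in the optimal list, -4.06 in the stronger part, and 0.11 with replicate 2's list. The causes were not tested. Depth is unknown, so weak members may be missing from either replicate's list for lack of reads.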

Other observations

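In the gene lists not described above, holding genes had between 1 and 6 summits each, beside 7.0% of all genes with any. RNA-binding protein genes held them in 7 of 27 cases (25.9%), led by shep (4 summits, up to 676), Rbp6 (2, up to 405) and brat (2, up to 397), a translational repressor gene of neural stem cell progeny. Insulin and metabolic signalling genes held them in 4 of 14, with the receptor gene InR at 214 and the kinase gene S6k at 200. Axon guidance genes held them in 6 of 35, with beat-Ib (6 summits, up to 242), Sema1a (1 at 168) and sli, the gene of the midline repellent Slit (3, up to 159). Muscle genes held them in 4 of 24, led by the splicing regulator mbl (3 summits, up to 225), and small GTPase and cytoskeleton genes in 5 of 33, led by cv-c (2 summits, up to 201.1). At the median eligible length of the RNA-binding list, 28.4% of all genes held a summit. For the axon guidance (17.1%) and muscle (16.7%) lists this size share was 17.8%, and for the insulin and cytoskeleton lists 6.40%. Only the insulin and cytoskeleton lists thus lay above the share of their size. In brat, beat-Ib, Sema1a and sli the strongest summit lay nearest to the start of another gene.

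The 21 summits that overlapped neither replicate's own list differed in sequence from the 309 in both. GAGAG was within 50 bp of 10 of the 21 (47.6%, 28.3 to 67.6%) and 20.1% of the 309, and GCNGCNGC of 1 of the 21 and 21.0% of the 309. Median GC content was 38.6% and 49.5%, and median signal 87.8 and 200.1. The 135 in replicate 2's own list only had GAGAG in 17.0% and GCNGCNGC in 7.41%. For the 17 in replicate 1's own list only these shares were 17.6% and 11.8%. The higher GAGAG share was thus found in the group of 21 only. The contrast of the 21 with the 309 was noticed in the data, and its cause was not tested.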
